A study of Mus musculus with 6 samples.

Results

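The genes described here build and move proteins through the secretory pathway: they open the way into the endoplasmic reticulum (ER), coat the vesicles between ER and Golgi, and put together the sugars that proteins and lipids carry. They were measured by messenger RNA sequencing in MLO-Y4 cells, an established mouse cell line that resembles osteocytes, which sit inside mineralized bone. Members were the protein-coding genes of the deposited table whose symbols begin with any of a set of prefixes for this machinery, such as Sec24, Tmed, Trapp, Alg, Pig, Mgat, Galnt, Chst or Ext. The rule found 42 of the 2065 genes in the table, and all 42 passed the filter on low values. MLO-Y4 was derived from transgenic mice in which the osteocalcin promoter drives a viral large T-antigen, which limits it as a model of resting bone cells. One group was cultured at 2% O2 in a hypoxic chamber for 24 h (3 libraries labelled hypoxia, replicates 1, 2 and 4). Its control was cultured at 20% O2 for 24 h (3 libraries labelled normoxia, replicates 2, 3 and 4). All libraries are labelled wild type and came from one line, medium and serum, and the free-text descriptions give 24, 25 and 26 h for the 3 libraries of each label. The labels do not say whether replicates are separate cultures, and a p-value here reflects only how these libraries vary, which may be technical.

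Secreted and membrane proteins enter the ER through a channel, lose their signal peptide to the signal peptidase, and receive a preformed sugar tree, the N-glycan, or a lipid anchor, glycosylphosphatidylinositol (GPI). COPII-coated vesicles carry them to the Golgi, COPI-coated vesicles return escaped residents, and tethers such as the TRAPP complexes catch vesicles at their target. In the Golgi the N-glycan is trimmed and branched, O-glycans start, and the heparan and chondroitin sulfate chains of proteoglycans are built. Bone cells depend on this route because they secrete matrix, and in humans mutations in several of these genes, SEC24D among them, cause skeletal disease.

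The table carries 2 limits that bear on every value below. It is restricted to genes picked by the authors because they differed in these same libraries, with a deposited absolute log2 fold change of at least 1.00, so a member's listing already implies a change and no count below is independent evidence of one. Genes outside the table were not analysed here. The labels were checked with 6 target genes of hypoxia-inducible factor (HIF), which accumulates when oxygen is low. All 6 were lower in the libraries labelled hypoxia, with changes from -3.13 ± 0.09 for the glucose transporter gene Slc2a1 to -1.03 ± 0.07 for the vascular growth factor gene Vegfa. Slc2a1 stood at 7.86, 7.65 and 7.65 in the libraries labelled hypoxia, against 10.77, 10.81 and 10.96 in those labelled normoxia. These targets go against the labels, so each direction below is given by label only.

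Entries are log2(value + 1) as deposited, and the linear unit is not named, so levels are compared between libraries and not between genes, and sequencing depth is unknown. Libraries of one label correlated with r from 0.991 to 0.996 over the tested genes, and across labels r lay between 0.762 and 0.805. Of 10 osteocyte marker names chosen to check the cell type, among them both Pdpn and its alias E11, Pdpn alone was in the table. Its linear values were 248 to 265 under the hypoxia label and 71.2 to 80.4 under the normoxia label. The osteocyte identity could not be checked from the other names. Of markers of other cell types, 1 of 6 for macrophages and osteoclasts was listed (Cd68, linear values 7.12 to 9.06 under the hypoxia label and 22.7 to 26.4 under the normoxia label) and 1 of 3 for chondrocytes (Sox9, 16.0 to 19.2 under the hypoxia label and 71.9 to 87.6 under the normoxia label). For muscle 1 of 3 was listed (Acta1, 0.897 to 1.24 under the hypoxia label and 9.06 to 12.8 under the normoxia label), for adipocytes 1 of 3 (Cebpa, 4.03 to 4.59 under the hypoxia label and 1.18 to 1.47 under the normoxia label) and for endothelium 0 of 3. Of osteoblast markers 6 of 9 were listed: Bglap, Bglap2, Col1a1, Col1a2 and Spp1 were higher under the hypoxia label, Spp1 with -0.20 under TMM, and Runx2 was lower (-1.04 ± 0.12). Their linear sums of 22139 to 22966 under the hypoxia label and 10178 to 10601 under the normoxia label came mostly from Spp1, with means of 22324 and 10389 under these labels. The part of such cells in the results was not tested, and in bulk RNA a change in the share of a cell type and a change in RNA per cell cannot be told apart.

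As deposited, all 42 members were higher in the libraries labelled hypoxia and 0 were lower, while 19 lay below 0, without passing the test, under the TMM scaling described below. Limma's test across the whole table, with Benjamini-Hochberg adjustment and a threshold of 0.05, called every one (highest adjusted p = 0.00371), beside 79.4% called higher of all 2056 tested genes and 85.1% of the tested protein-coding ones. The median change of the members was 1.18 and that of all tested genes 1.15, on the log2(value + 1) scale. Among the 1449 other protein-coding genes called higher the median was 1.24. The members' changes ran from 1.00 for Galnt7 to 2.10 for Extl2, and their ratios of mean linear values started at 2.13. The ratio was highest for Mgat2 (4.23) among the 40 members with a mean linear value of at least 1 under the normoxia label. The remaining 2, Sec16b and Galnt9, passed the filter on low values only through the libraries labelled hypoxia, so their calls support nothing. The median entry of the members was 4.65, 4.60 and 4.53 in the libraries labelled hypoxia, against 3.36, 3.22 and 3.08 in those labelled normoxia. The groups of libraries overlapped in no member, as in 99.9% of all tested genes. The gap between the groups had a median of 0.995 in the members and 1.05 in all listed genes.

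Most members lay close to the limit the authors set. The change was under 1.25 in 25 members (59.5%), against 51.7% of the other protein-coding genes called higher, and at least 2 in 2 members. The members just inside the limit were Galnt7 (1.00 ± 0.10), Pigg (1.03 ± 0.10) and Piga (1.04 ± 0.10). Genes just outside it were not analysed here.

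**Figure D1:**
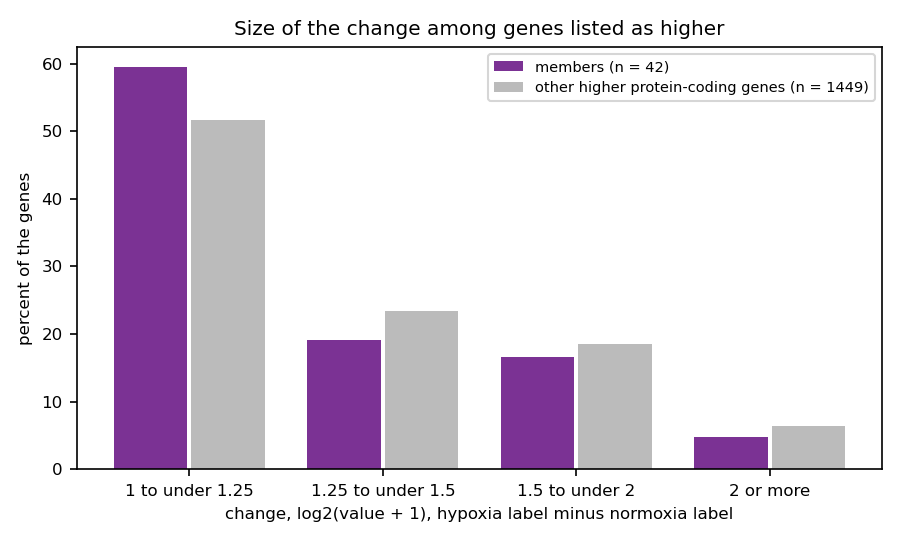
Percent of genes in 4 ranges of change (hypoxia label minus normoxia label, log2(value + 1)), for the 42 members and for the 1449 other protein-coding genes called higher. In the lowest range lie 59.5% of the members and 51.7% of the other genes, and no gene lies below 1 because the authors set that limit.

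The sign computed for the smaller changes depends on how the table is scaled. Trimmed mean (TMM) factors, which assume that most genes stay level, brought the overall median change to 0.0037 from 1.15, and quantile normalization to 0.36. The table was selected for change, so it holds no level genes by the authors' measure, and TMM factors centre it by construction. Quantile normalization gives every library the same distribution of values, so it too shifts this table by construction. Signs and calls under either scaling place a gene relative to the rest of this table and do not settle its direction. Across all tested genes the split was 1633 higher and 423 lower as deposited, 1390 and 421 after quantile normalization, and 543 and 512 with TMM factors. Of the members, 35 were called higher and 0 lower after quantile normalization (67.6% higher of all tested genes), and 9 higher and 0 lower with TMM factors (26.4%). The 9 were Galnt9, Sec16b, Mgat2, Pigw, Galnt4, Chst1, Chst14, Extl3 and Alg5, of which Galnt9 and Sec16b are those that passed the filter through one label alone, while 19 members were below 0 with TMM factors without passing the test. The statements on roles below hold for the values as deposited, and each gives its members that lay below 0 under TMM.

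**Figure D2:**
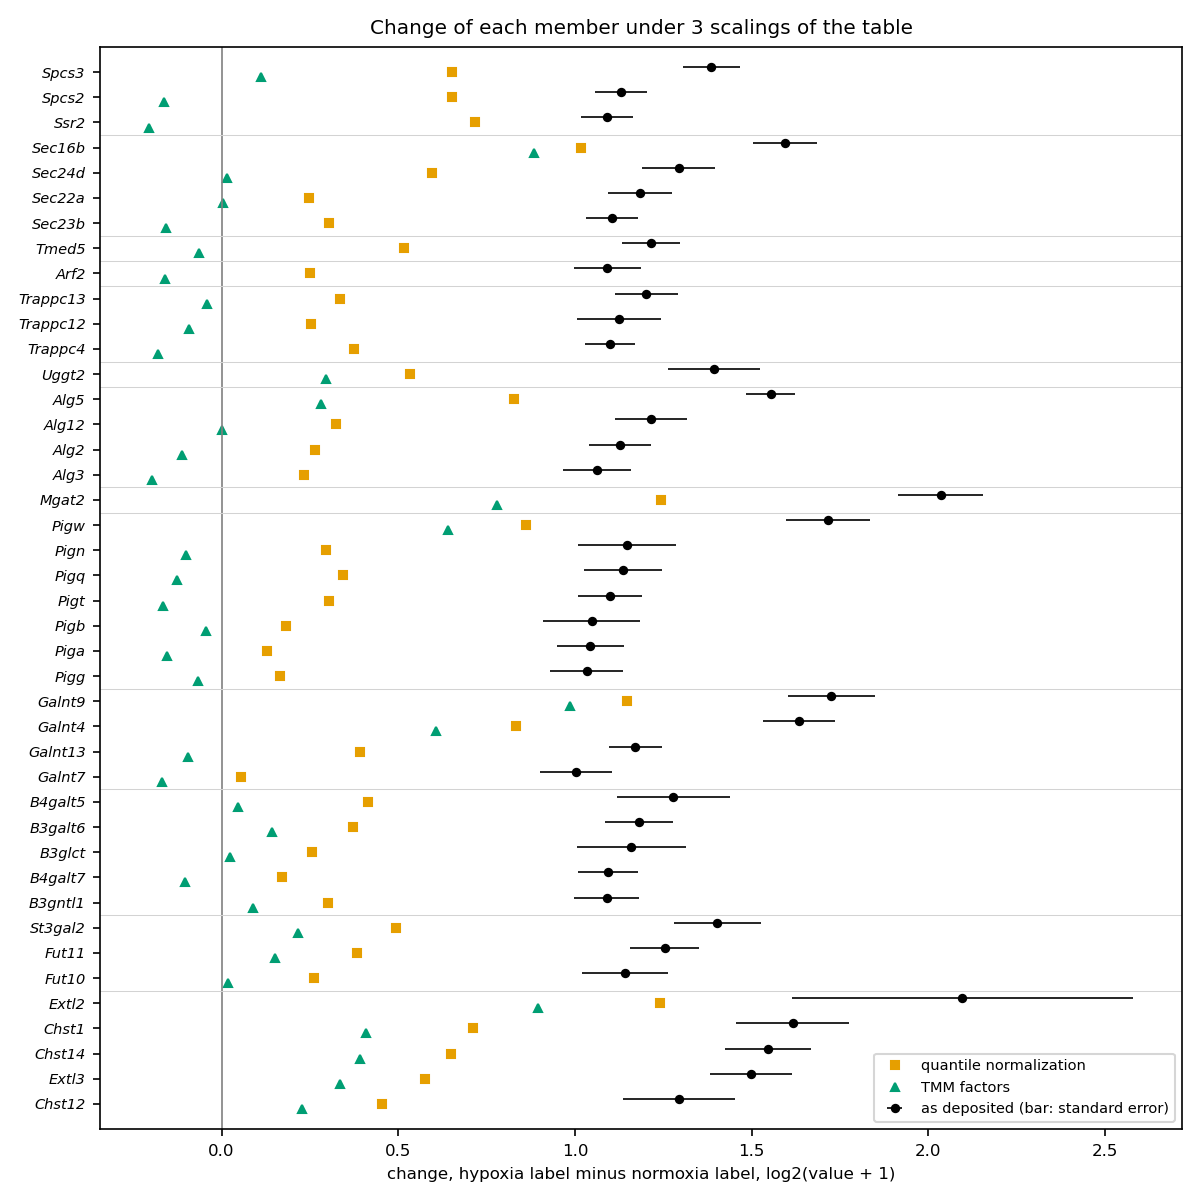
Change of each member, hypoxia label minus normoxia label, as deposited with its standard error, after quantile normalization and with TMM factors, grouped by role. As deposited all 42 lie at 1.00 or above, after quantile normalization all lie above 0, and with TMM factors 19 lie below 0.

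Against the annotation, the prefixes match 264 protein-coding genes of GENCODE vM21. Of these 42 (15.9%) were in the table, all as higher, beside 8.01% of all annotated protein-coding genes listed and 6.81% listed as higher. Outside the rule 7.92% were listed and 6.7% listed as higher. The share was 7 of 21 for GPI anchor genes, 4 of 15 for the COPII coat and Sec22 genes together (Sec22 genes 1 of 3), 4 of 15 for the dolichol-linked N-glycan precursor and 5 of 20 for proteoglycan chains and sugar sulfation. It was 0 of 11 for the COPI coat and the KDEL receptors and 1 of 11 for the p24 family. For symbols that begin with Arf, which cover Arf GTPases and their regulators, it was 1 of 15. These shares count annotated genes whether or not the cells transcribe them, and a gene outside the table may have changed by less than the authors' limit. Members and roles were chosen with earlier results of these data known. The shares are therefore no independent evidence that such genes are listed more often than others.

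At the entrance of the ER, 3 members were higher, and Spcs2 and Ssr2 lay below 0 under TMM. Spcs3 (ENSMUSG00000054408, chromosome 8), a subunit of the signal peptidase, stood at 6.47, 6.42 and 6.40 in the libraries labelled hypoxia, against 5.18, 4.99 and 4.96 in those labelled normoxia (change 1.39 ± 0.08). Spcs2 (ENSMUSG00000035227, chromosome 7), another subunit of the same enzyme, had 8.17, 8.01 and 8.11 under the hypoxia label and 7.02, 6.93 and 6.95 under the normoxia label (change 1.13 ± 0.07). Thus 2 of the 3 annotated Spcs genes were listed, and the catalytic Sec11 genes were not. Ssr2 (ENSMUSG00000041355, chromosome 3), a subunit of the translocon-associated protein complex, was at 8.57, 8.46 and 8.50 in the libraries labelled hypoxia, against 7.48, 7.34 and 7.43 in those labelled normoxia (change 1.09 ± 0.07). An annotated processed pseudogene, Gm10704, shares exon bases with Ssr2 on the other strand. In each of the 3 genes the lowest library labelled hypoxia lay at least 0.979 above the highest labelled normoxia. The median of this gap in all listed genes was 1.05.

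**Figure D3:**
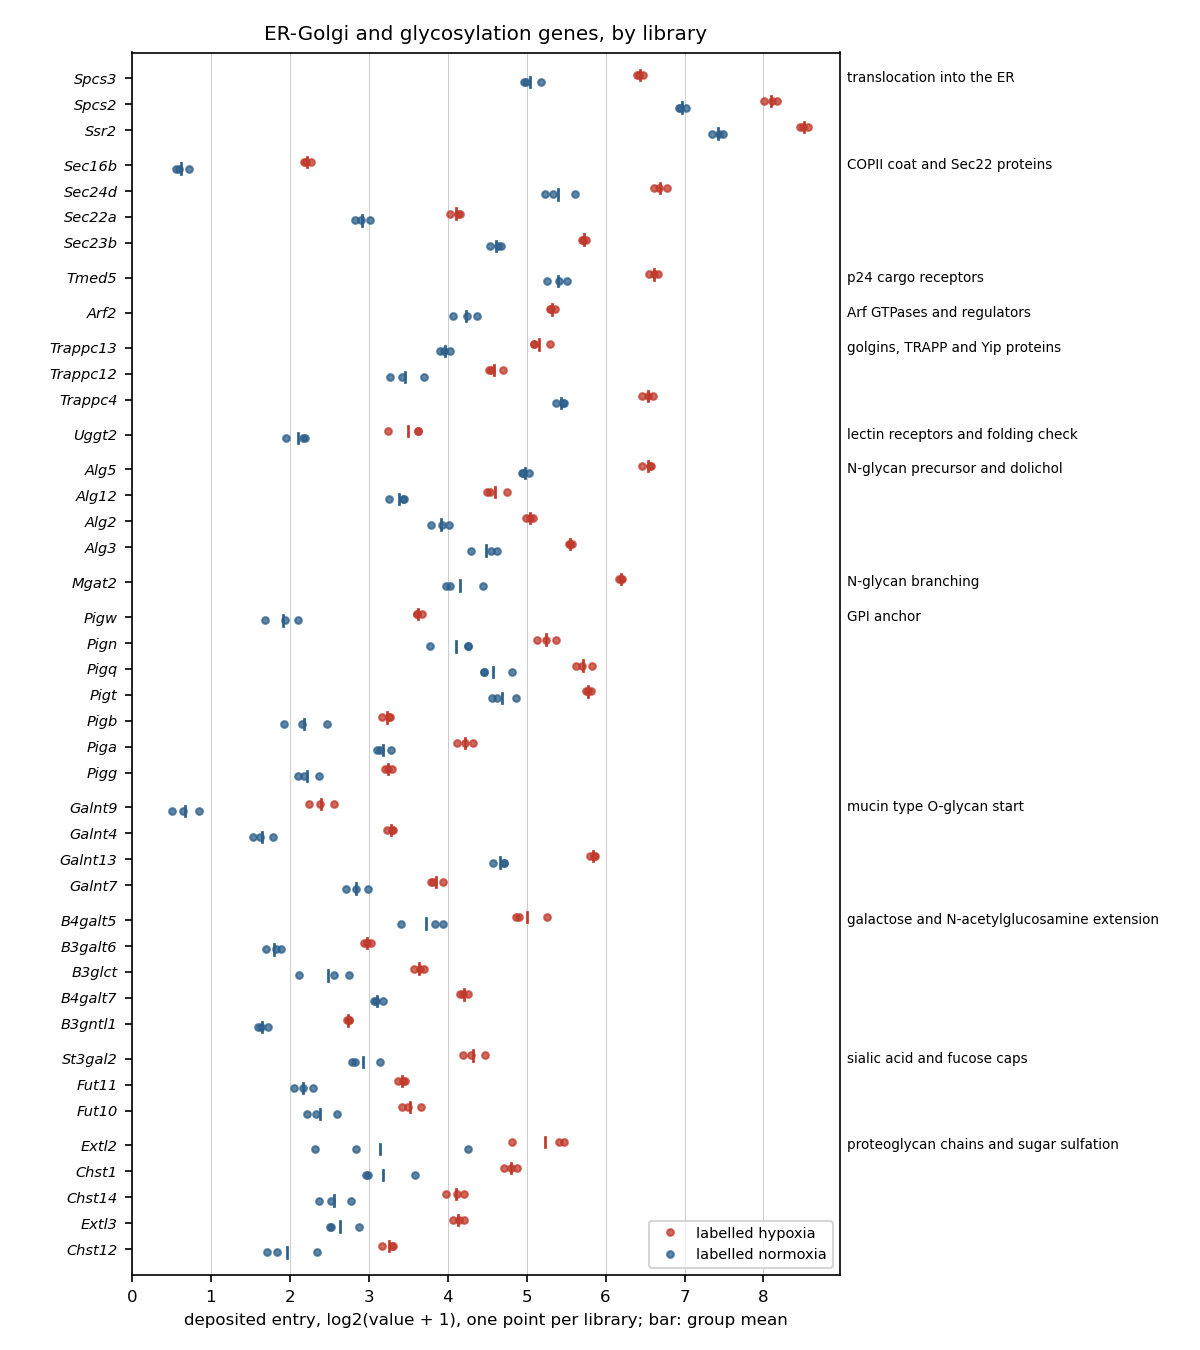
Deposited entries of the 42 members, one point per library and a bar at each group's mean, grouped by role; levels are not comparable between genes. The 3 libraries labelled hypoxia lie above the 3 labelled normoxia in every row as deposited, 19 genes lie below 0 with TMM factors, and Extl2 has the widest spread under the normoxia label.

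The COPII coat and its exit sites had 3 listed genes and the Sec22 family 1, all higher, and Sec23b lay below 0 under TMM. Sec16b (ENSMUSG00000026589, chromosome 1), a scaffold of ER exit sites, stood at 2.27, 2.21 and 2.18 in the libraries labelled hypoxia, against 0.72, 0.59 and 0.56 in those labelled normoxia. Its change was 1.59 ± 0.09, and its linear mean was 3.66 under the hypoxia label and 0.544 under the normoxia label. Sec24d (ENSMUSG00000039234, chromosome 3), a cargo-binding subunit of the inner coat, had 6.78, 6.62 and 6.67 under the hypoxia label and 5.62, 5.33 and 5.24 under the normoxia label (change 1.29 ± 0.10). Its partner in the inner coat Sec23b (ENSMUSG00000027429, chromosome 2), which activates the GTPase of the coat, was at 5.75, 5.71 and 5.70 in the libraries labelled hypoxia, against 4.67, 4.53 and 4.64 in those labelled normoxia (change 1.11 ± 0.07). Sec22a (ENSMUSG00000034473, chromosome 16), of the SNARE-like Sec22 family, which is no part of the coat, had 4.03, 4.15 and 4.13 under the hypoxia label and 3.02, 2.90 and 2.83 under the normoxia label (change 1.18 ± 0.09). All 4 separated the labels by at least 0.998, beside a median gap of 1.05 in all listed genes. Sec16b among them passed the filter on low values only through the libraries labelled hypoxia.

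Both Sec16b and Sec24d carry the letters TGACGTGG in the 250 bases before an annotated start. This is the unfolded protein response element (UPRE), to which the transcription factor XBP1 can bind. The promoters are shown because no other member window of the table held this motif, and because the gene of that factor, Xbp1, is described below. Sequences are from RefSeq on GRCm38.p6, which is an older build than the GRCm39 named by the authors, and are written 5′ to 3′ on the gene's strand with the motif in capitals.
Sec16b, chr1:157506546-157506795, plus strand: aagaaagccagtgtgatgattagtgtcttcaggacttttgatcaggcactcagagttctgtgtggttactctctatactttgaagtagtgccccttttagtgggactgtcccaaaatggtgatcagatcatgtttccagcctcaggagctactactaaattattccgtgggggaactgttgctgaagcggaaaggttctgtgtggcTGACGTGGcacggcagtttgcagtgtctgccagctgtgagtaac
Sec24d, chr3:123267246-123267495, plus strand: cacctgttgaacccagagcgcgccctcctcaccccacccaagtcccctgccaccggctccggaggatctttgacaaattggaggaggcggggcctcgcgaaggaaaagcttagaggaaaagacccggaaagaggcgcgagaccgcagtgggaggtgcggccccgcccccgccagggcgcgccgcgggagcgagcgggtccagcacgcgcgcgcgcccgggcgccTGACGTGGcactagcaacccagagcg
The motif begins 44 bases before the start in Sec16b and 26 bases before it in Sec24d. Another annotated window of Sec16b did not hold it.

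RefSeq promoter windows (250 bases before to 50 after a start) were found by symbol for 33 of the 42 members, in 39 windows. Motifs were searched on both strands in these and in all 32851 windows. The latter were taken whatever the type of gene or its level in these cells, so they are not matched to the members. A gene can have several windows. Counted by gene, the letters CCAAT were in 18 of 33 members (54.5%) and in 41.1% of all genes. The UPRE was in 2 of 39 member windows (5.13%) and in 0.676% of all windows. Of these, the Sec16b window belongs to a member that passed the filter on low values only through the libraries labelled hypoxia. Sec16b and Galnt9, which passed in the same way, are also in the counts of ACGTGG and ACGTG below. Its inner letters ACGTGG were in 8 member windows (20.5%) and 8.31% of all, and ACGTG, the core of the hypoxia response element, which lies inside both, in 11 (28.2%) and 19.6%. The letters CCAAT were in 21 (53.8%) and 37.4%. The ER stress element, CCAAT and CCACG with 9 bases of any kind between, which contains the CCAAT above, was in 1 member window and 0.119% of all, and its second form, ATTGG and CCACG with 1 base between, in 0 and 0.0365%. A match describes these letters and is no evidence that a factor binds there.

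In the vesicle traffic that follows, 5 members were higher, and all 5 lay below 0 under TMM. Tmed5 (ENSMUSG00000063406, chromosome 5), a p24 protein that takes cargo such as GPI-anchored proteins into vesicles, stood at 6.66, 6.55 and 6.62 in the libraries labelled hypoxia, against 5.41, 5.51 and 5.26 in those labelled normoxia (change 1.22 ± 0.08). Arf2 (ENSMUSG00000062421, chromosome 11), a small GTPase that recruits Golgi coats and is present in mice but not in humans, had 5.35, 5.30 and 5.31 under the hypoxia label and 4.38, 4.24 and 4.06 under the normoxia label (change 1.09 ± 0.09). Of the TRAPP tethers, the core subunit Trappc4 (ENSMUSG00000032112, chromosome 9) was at 6.60, 6.47 and 6.53 in the libraries labelled hypoxia, against 5.46, 5.37 and 5.47 in those labelled normoxia (change 1.10 ± 0.07). Trappc12 (ENSMUSG00000020628, chromosome 12) and Trappc13 (ENSMUSG00000021711, chromosome 13), subunits of the larger TRAPP III complex, changed by 1.12 ± 0.12 and 1.20 ± 0.09. Trappc12 had 4.55, 4.70 and 4.52 under the hypoxia label and 3.70, 3.27 and 3.43 under the normoxia label. Trappc13 had 5.10, 5.09 and 5.30 under the hypoxia label and 4.03, 3.95 and 3.90 under the normoxia label. For these 5 genes the groups lay at least 0.821 apart, beside a median gap of 1.05 in all listed genes. Exons of Trappc4 and Tmed5 overlap those of Rps25 and Mtf2 on the other strand, and the sources used here name no strand setting for the counting.

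Of the check on folding, Uggt2 (ENSMUSG00000042104, chromosome 14), related to the enzyme that re-glucosylates misfolded glycoproteins so that lectin chaperones bind them again, stood at 3.62, 3.62 and 3.25 in the libraries labelled hypoxia, against 2.19, 1.95 and 2.16 in those labelled normoxia (change 1.39 ± 0.13). The library labelled hypoxia, replicate 4, was the lowest of its group and still 1.06 above the highest one labelled normoxia. None of the 4 annotated Lman genes was listed.

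The N-glycan precursor is built on the lipid dolichol, and 4 of its Alg genes were higher, with Alg2 and Alg3 below 0 under TMM. Alg5 (ENSMUSG00000036632, chromosome 3), which makes the dolichol-linked glucose donor, stood at 6.58, 6.46 and 6.56 in the libraries labelled hypoxia, against 5.03, 4.95 and 4.95 in those labelled normoxia (change 1.55 ± 0.07). Alg12 (ENSMUSG00000035845, chromosome 15), a mannosyltransferase of the ER lumen, had 4.75, 4.49 and 4.54 under the hypoxia label and 3.43, 3.26 and 3.44 under the normoxia label (change 1.22 ± 0.10). Alg2 (ENSMUSG00000039740, chromosome 4), a mannosyltransferase of the cytosolic face, was at 5.08, 5.05 and 4.99 in the libraries labelled hypoxia, against 4.02, 3.92 and 3.78 in those labelled normoxia (change 1.13 ± 0.09). Alg3 (ENSMUSG00000033809, chromosome 16), which adds the first mannose on the lumenal side, had 5.55, 5.54 and 5.57 under the hypoxia label and 4.63, 4.55 and 4.29 under the normoxia label (change 1.06 ± 0.10). The largest SD of the 4 was 0.18 (Alg3, normoxia label, n = 3), beside a median of 0.138 over the members under that label. Alg12 had an SD of 0.14 under the hypoxia label (n = 3), where the median of the members was 0.0658. Alg5 alone of the 4 stayed called higher under TMM (change 0.28; limma, adjusted p = 0.0104), beside 26.4% of all tested genes.

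The promoter of Alg12 is shown because it is the one member window that held the full ER stress element, here in capitals, on the gene's strand.
Alg12, chr15:88819319-88819568, minus strand, RefSeq on GRCm38.p6: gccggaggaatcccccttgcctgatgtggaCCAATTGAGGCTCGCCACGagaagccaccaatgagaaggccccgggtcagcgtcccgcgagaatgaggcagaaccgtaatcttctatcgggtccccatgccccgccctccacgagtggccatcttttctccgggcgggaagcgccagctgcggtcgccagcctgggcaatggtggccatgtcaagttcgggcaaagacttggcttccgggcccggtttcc
The element begins 220 bases before the start of Alg12. In GENCODE vM21 the start of Creld2, an ER stress gene, lies 328 bases from that of Alg12 on the other strand. The element lies upstream of Alg12 on the side of Creld2, and to which of the 2 genes it belongs was not tested. Creld2 was at 9.25, 8.87 and 9.02 in the libraries labelled hypoxia, against 6.30, 6.14 and 6.15 in those labelled normoxia (change 2.85 ± 0.10). Creld2 was chosen after its values were seen. Head-to-head neighbours within 1000 bases were found for 9 members, and the neighbour was listed for 2, Alg12 and Extl2.

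Of N-glycan branching, Mgat2 (ENSMUSG00000043998, chromosome 12), which adds the N-acetylglucosamine that turns hybrid into complex N-glycans, stood at 6.19, 6.17 and 6.21 in the libraries labelled hypoxia, against 4.45, 4.03 and 3.98 in those labelled normoxia. Its change of 2.03 ± 0.12 (limma, adjusted p = 2.33e-07) and ratio of mean linear values of 4.23 were among the largest of the members. Of all members its groups lay furthest apart, by 1.72, and with TMM factors it kept 0.78 (limma, adjusted p = 0.000173). It was 1 of 10 annotated Mgat genes, and the remaining 9 were not listed.

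The GPI anchor had 7 listed genes, the most of any role, all higher, of which all but Pigw lay below 0 under TMM. They span the pathway from its first to its last step. Pigw (ENSMUSG00000045140, chromosome 11), which acylates the inositol of the anchor, stood at 3.61, 3.61 and 3.67 in the libraries labelled hypoxia, against 2.10, 1.94 and 1.69 in those labelled normoxia (change 1.72 ± 0.12, ratio of mean linear values 4.08). Pigq (ENSMUSG00000025728, chromosome 17), a subunit of the enzyme complex of the first step, had 5.70, 5.83 and 5.62 under the hypoxia label and 4.81, 4.46 and 4.47 under the normoxia label (change 1.14 ± 0.11). Pign (ENSMUSG00000056536, chromosome 1), which adds phosphoethanolamine to the first mannose, was at 5.37, 5.13 and 5.24 in the libraries labelled hypoxia, against 4.26, 3.78 and 4.26 in those labelled normoxia (change 1.15 ± 0.14). Pigt (ENSMUSG00000017721, chromosome 2), of the transamidase that joins the finished anchor to the protein, had 5.78, 5.81 and 5.75 under the hypoxia label and 4.86, 4.56 and 4.62 under the normoxia label (change 1.10 ± 0.09). Pigb, Piga and Pigg, which act in mannose transfer, the first step and a late phosphoethanolamine transfer, changed by 1.05 ± 0.14, 1.04 ± 0.10 and 1.03 ± 0.10. After quantile normalization 3 of the 7 stayed called higher, beside 67.6% of all tested genes. Exons of Pigq and Pign overlap Nhlrc4 and AC124553.1 on the same strand and those of Pigb overlap Ccpg1 on the other, and reads of these stretches cannot be assigned with certainty.

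Mucin-type O-glycans start with the transfer of N-acetylgalactosamine by Galnt enzymes. Of their 19 annotated genes 4 were listed and higher, beside 6.81% of all annotated protein-coding genes listed as higher. Galnt13 and Galnt7 lay below 0 under TMM. Galnt9 (ENSMUSG00000033316, chromosome 5) was at 2.39, 2.55 and 2.24 in the libraries labelled hypoxia, against 0.65, 0.50 and 0.85 in those labelled normoxia. Its linear mean was 4.27 under the hypoxia label and 0.595 under the normoxia label, at a change of 1.73 ± 0.12. Galnt4 (ENSMUSG00000090035, chromosome 10) had 3.24, 3.31 and 3.29 under the hypoxia label and 1.78, 1.62 and 1.53 under the normoxia label (change 1.64 ± 0.10). In the annotation Galnt4 shares exon bases with Poc1b on the same strand, so reads of the stretch cannot be assigned with certainty. Galnt13 (ENSMUSG00000060988, chromosome 2) stood at 5.85, 5.80 and 5.86 in the libraries labelled hypoxia, against 4.71, 4.58 and 4.71 in those labelled normoxia (change 1.17 ± 0.07). Galnt7 (ENSMUSG00000031608, chromosome 8), which acts on peptides that already carry a sugar, had 3.82, 3.94 and 3.78 under the hypoxia label and 2.99, 2.83 and 2.71 under the normoxia label (change 1.00 ± 0.10, 0.05 after quantile normalization).

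The B3g and B4g prefixes gather enzymes of different chains, 5 of them listed and higher, with B4galt7 below 0 under TMM. B4galt7 (ENSMUSG00000021504, chromosome 13) and B3galt6 (ENSMUSG00000050796, chromosome 4) add the inner and the outer galactose of the linker that joins heparan and chondroitin chains to their proteins. B4galt7 was at 4.19, 4.26 and 4.15 in the libraries labelled hypoxia, against 3.09, 3.17 and 3.07 in those labelled normoxia (change 1.09 ± 0.08). B3galt6 had 2.94, 3.03 and 2.98 under the hypoxia label and 1.88, 1.82 and 1.70 under the normoxia label (change 1.18 ± 0.10). B4galt5 (ENSMUSG00000017929, chromosome 2), which makes lactosylceramide, the root of many glycolipids, stood at 5.25, 4.91 and 4.86 in the libraries labelled hypoxia, against 3.84, 3.94 and 3.40 in those labelled normoxia (change 1.28 ± 0.16). B3glct (ENSMUSG00000051950, chromosome 5), which adds glucose to the O-fucose of thrombospondin repeats, had 3.70, 3.64 and 3.57 under the hypoxia label and 2.56, 2.12 and 2.76 under the normoxia label (change 1.16 ± 0.15). The remaining gene, B3gntl1, changed by 1.09 ± 0.09.

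The genes of proteoglycan chains and sugar sulfation, which span heparan, chondroitin, dermatan and keratan sulfate, had the highest median change of the roles with more than 1 listed gene, 1.55 over 5 genes, and 0 of them lay below 0 under TMM. Extl3 (ENSMUSG00000021978, chromosome 14), whose enzyme starts the heparan chain on the linker, stood at 4.06, 4.20 and 4.14 in the libraries labelled hypoxia, against 2.88, 2.51 and 2.53 in those labelled normoxia (change 1.50 ± 0.12). Chst14 (ENSMUSG00000074916, chromosome 2), which sulfates dermatan sulfate, had 4.12, 4.21 and 3.97 under the hypoxia label and 2.77, 2.52 and 2.37 under the normoxia label (change 1.55 ± 0.12). Chst1 (ENSMUSG00000027221, chromosome 2), a sulfotransferase of keratan sulfate, was at 4.80, 4.88 and 4.71 in the libraries labelled hypoxia, against 3.58, 2.99 and 2.97 in those labelled normoxia (change 1.62 ± 0.16). Chst12, a sulfotransferase of chondroitin, changed by 1.29 ± 0.16. With TMM factors Chst1, Chst14 and Extl3 stayed called higher, at 0.41, 0.39 and 0.33, beside 26.4% of all tested genes called higher.

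Extl2 (ENSMUSG00000027963, chromosome 3), which can cap the linker of these chains, had the largest change of the members on this scale and also the widest spread. It was at 4.81, 5.48 and 5.41 in the libraries labelled hypoxia, against 2.84, 4.26 and 2.31 in those labelled normoxia. Under the normoxia label replicate 3 lay far above replicates 2 and 4, with an SD of 1.01 (n = 3), where the median SD of the members was 0.138 under that label. Its change was 2.10 ± 0.48 (limma, adjusted p = 0.00371, the highest of the members), and leaving out 1 library at a time gave 1.68 to 2.66. The start of Slc30a7, a zinc transporter gene, lies 56 bases from that of Extl2 on the other strand. Slc30a7 had 4.79, 4.99 and 4.99 under the hypoxia label and 2.45, 2.31 and 3.48 under the normoxia label (change 2.18 ± 0.29), and there replicate 4 was the high one under the normoxia label. Slc30a7 was chosen after its values were seen.

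Of the sialic acid and fucose genes 3 were listed and higher, and 0 lay below 0 under TMM. St3gal2 (ENSMUSG00000031749, chromosome 8), which caps galactose with sialic acid on gangliosides and O-glycans, stood at 4.20, 4.48 and 4.30 in the libraries labelled hypoxia, against 3.15, 2.82 and 2.79 in those labelled normoxia (change 1.40 ± 0.12). Fut11 (ENSMUSG00000039357, chromosome 14) and Fut10 (ENSMUSG00000046152, chromosome 8), of the fucosyltransferase family, changed by 1.25 ± 0.10 and 1.14 ± 0.12. Fut11 had 3.44, 3.46 and 3.38 under the hypoxia label and 2.29, 2.16 and 2.06 under the normoxia label. Fut10 had 3.49, 3.66 and 3.41 under the hypoxia label and 2.59, 2.33 and 2.21 under the normoxia label. None of the 9 annotated St6gal genes was listed.

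The spread between libraries was uneven across labels. The SD was smaller under the hypoxia label than under the normoxia label in 35 of 42 members (83.3%), as in 73.8% of all listed genes. The median SD of the members was 0.0658 and 0.138 under these labels (n = 3 each). Under the normoxia label replicate 2 was the highest library in 33 of the 42 members (78.6%) and the lowest in 0. In all listed genes it was the highest in 62.7%, and in the listed genes that were higher in 72.4%. Leaving out each library in turn kept all 42 members called higher, and no member's change moved by more than 1.27 times. The members lay on 17 chromosomes, with at most 6 on one (chromosome 2).

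Genes of the same pathways that the prefixes do not cover were taken from 9 lists with 158 entries, of which 20 were in the table, beside 8.01% of all annotated protein-coding genes. Of these 19 were higher and 1 lower, beside 85.1% higher of the tested protein-coding genes. Their median change was 1.40, and 6 of the 20 were below 0 under TMM, Pgm1 included. The lists were chosen with earlier results of these data known, so these counts and this median are no independent support. Rab30, among the 20, passed the filter on low values only through the libraries labelled hypoxia. Of the oligosaccharyltransferase, which moves the finished N-glycan onto the protein, the subunits Ostc and Magt1 were higher. Ostc was at 7.55, 7.35 and 7.51 in the libraries labelled hypoxia, against 5.59, 5.38 and 5.26 in those labelled normoxia (change 2.06 ± 0.10). Magt1 had 5.75, 5.66 and 5.55 under the hypoxia label and 4.05, 3.63 and 3.57 under the normoxia label (change 1.91 ± 0.13). The glucosidase gene Mogs, which starts the trimming of the N-glycan, changed by 1.12 ± 0.07. Both listed Golgi mannosidases were higher, Man2a1 at 4.22, 4.29 and 4.13 in the libraries labelled hypoxia, against 2.38, 2.04 and 2.22 in those labelled normoxia (change 2.00 ± 0.11) and Man1c1 with a change of 1.44 ± 0.11. Man2a1 acts directly before Mgat2, described above.

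In vesicle traffic, the cargo receptor partner Mcfd2 changed by 1.45 ± 0.07, the SNARE Bet1l by 1.40 ± 0.09, and the tether subunits Cog6 and Cog8 by 1.14 ± 0.11 and 1.09 ± 0.08, both below 0 under TMM. Rab30, a GTPase of the Golgi, had 2.03, 2.18 and 1.89 under the hypoxia label and 0.81, 0.70 and 0.59 under the normoxia label (change 1.33 ± 0.11) and also passed the filter only through the libraries labelled hypoxia. Of chondroitin synthesis, Csgalnact1, which starts the chain, stood at 5.88, 5.86 and 5.87 in the libraries labelled hypoxia, against 4.45, 4.22 and 4.08 in those labelled normoxia (change 1.62 ± 0.10). The polymerizing factors Chpf and Chpf2 changed by 1.51 ± 0.10 and 1.05 ± 0.11, and the dermatan epimerase gene Dse by 1.01 ± 0.07. Dse was called lower with TMM factors (change -0.24; limma, adjusted p = 0.0133), and Chpf2 was below 0. None of the 8 GPI partners outside the Pig genes was listed.

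Of 28 sugar nucleotide genes 3 were listed, 2 higher and 1 lower, beside 85.1% higher of the tested protein-coding genes. Gnpnat1, of the synthesis of the N-acetylglucosamine donor, changed by 1.39 ± 0.09. Gmppb, which makes the mannose donor, stood at 4.97, 4.38 and 5.25 in the libraries labelled hypoxia, against 3.62, 3.08 and 2.51 in those labelled normoxia, a wide spread in both groups (change 1.79 ± 0.32; limma, adjusted p = 0.000992). It did not pass with TMM factors (0.60, limma, adjusted p = 0.128) or with the replicate block (1.75, limma, adjusted p = 0.329). The block fit uses 4 libraries, and its p-values are no check of the main fit. The single lower gene was Pgm1, a phosphoglucomutase that links glycogen and sugar nucleotides to glycolysis, at 6.39, 6.32 and 6.16 in the libraries labelled hypoxia, against 7.44, 7.34 and 7.39 in those labelled normoxia (change -1.10 ± 0.08), and it was lower under quantile normalization and TMM too.

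Of the regulators of secretory capacity, 3 of 14 were listed and higher, beside 6.81% of all annotated protein-coding genes listed as higher. Of these 3, 0 lay below 0 under TMM. Xbp1, a transcription factor of the unfolded protein response that expands the ER, was at 7.50, 7.39 and 7.48 in the libraries labelled hypoxia, against 5.85, 5.69 and 5.74 in those labelled normoxia (change 1.70 ± 0.07; limma, adjusted p = 5.07e-08). Creb3l2, a factor that in cartilage drives COPII genes, had 4.32, 4.28 and 4.30 under the hypoxia label and 3.15, 2.94 and 2.96 under the normoxia label (change 1.28 ± 0.09). Eif2ak3, the ER stress kinase PERK, changed by 1.24 ± 0.10. With TMM factors Xbp1 stayed called higher (0.41) and the other two did not pass. The active, spliced form of Xbp1 was not measured apart from the gene.

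**Figure D4:**
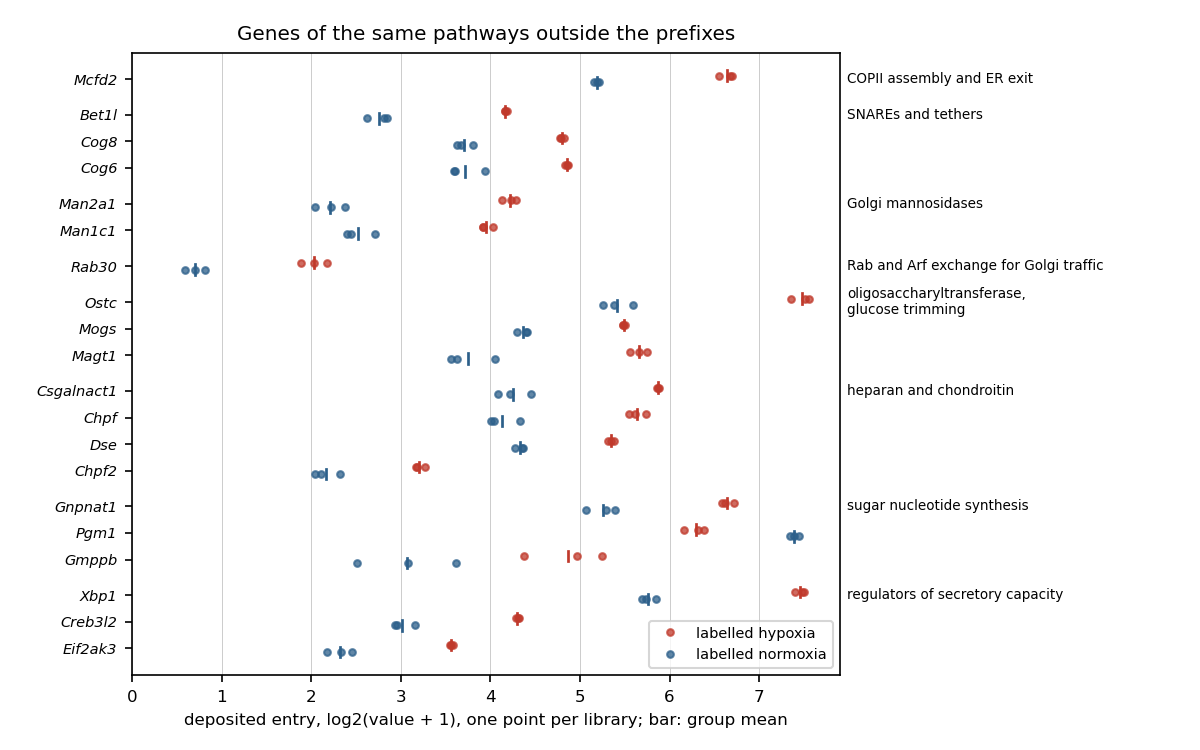
Deposited entries of the 20 listed genes from the same pathways outside the prefixes, one point per library and a bar at each group's mean; levels are not comparable between genes. The libraries labelled hypoxia lie above those labelled normoxia in 19 rows and below them in the row of Pgm1, and 6 genes change sign or stay below 0 with TMM factors (Cog6, Cog8, Mogs, Chpf2, Dse and Pgm1).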

How the data were processed

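Messenger RNA was sequenced in 6 libraries of MLO-Y4 cells, with a stranded kit per the labels' protocols. Quality control with FastQC 0.12.0, DRAGEN, and the build GRCm39 appear in the submitters' processing notes. The entries the authors deposited are log2 values per gene and library: 2 to the power of an entry, minus 1, had 3 decimals for 100% of entries (tolerance 1e-06), and no source used here names the linear unit or its normalization. The table also holds a log2 fold change and an adjusted p-value, deposited by the authors (highest 0.0926), and 2065 genes they selected. Another 21 columns, 18 repeating library values and 3 with values of mice outside the series, were left out.

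Limma 3.58.1 in R 4.3.3, with variance trend and robust estimation, was fitted on all 2056 genes that reached a linear value of 1 in 3 or more libraries. The contrast was hypoxia label minus normoxia label, two-sided, Benjamini-Hochberg, threshold 0.05. The fit was also run on simulated data in which most genes stay level. The table here was selected for change, so that check does not bear on its calls. Alternatives were pseudocounts, filters, quantile normalization, unweighted TMM factors, omission of single libraries, a stricter threshold of 0.01, a replicate block, and limma without the trend. Members were given roles by prefix. Named were any lower members or paralogs of opposite direction (0 found), all members of roles with 4 or fewer genes, otherwise the 4 largest changes, the listed genes with the smallest adjusted p in each outside list (up to 4), and 6 HIF targets. Members, roles and lists were chosen with earlier results of these data known. Overlaps and neighbours came from GENCODE vM21, matched by Ensembl identifier for 42 of 42 members, and promoters from RefSeq, both on GRCm38. The precision is limited by 3 libraries per label.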

Additional observations from a re-analysis of the deposited data

How the results depend on the processing

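The count of members higher stayed at 42 with pseudocounts of 0.1 and 5, no filter, limma without trend, the replicate block and a threshold of 0.01, was 40 of 40 with a filter of 5 and 35 after quantile normalization, and was 9 with TMM factors. The count of all tested genes higher was 543 with TMM factors. The count of members lower was 0 under every alternative. The median change of members was 0.98 with a pseudocount of 5, 0.38 after quantile normalization and 0.0087 with TMM factors. That of all tested genes was 1.29 and 0.87 with pseudocounts of 0.1 and 5, 0.36 after quantile normalization and 0.0037 with TMM factors. Leaving out each library gave 42 members higher and 0 lower, medians of 1.16 to 1.24 for members and 1.12 to 1.21 for all tested genes, with 1632 to 1633 for all tested genes higher and 419 to 423 for all tested genes lower. For the 63 named genes the alternatives gave 942 values, of which 899 kept direction and call, 22 lost the call and 21 changed sign, all 21 with TMM factors, which by construction centre a table that was selected for change. Among members these were Tmed5 -0.064, Trappc13 -0.041, Galnt13 -0.094, Pign -0.100, Pigq -0.127, Spcs2 -0.163, Alg2 -0.113, Trappc12 -0.093, Sec23b -0.158, Pigt -0.165, Trappc4 -0.180, B4galt7 -0.102, Arf2 -0.159, Ssr2 -0.204, Alg3 -0.196 and Galnt7 -0.168. Outside the prefixes they were Cog6 -0.095, Cog8 -0.137, Mogs -0.135, Chpf2 -0.045 and Dse -0.241. Same-numbered libraries deviated together with correlations of 0.08 (number 2) and -0.07 (number 4), and the labels do not say that a number marks a shared culture or day. The hours in the descriptions match across labels, but a block by them was not fitted. With the replicate block on these 4 libraries, 42 members were higher and 0 lower, and the median change of members was 1.17. Of the named genes Gmppb lost its call (1.75, limma, adjusted p = 0.329). That fit leaves almost no residual freedom per gene, so its p-values rest mostly on variance pooled across genes. Extl2, for example, had an adjusted p of 3.59e-68 there (limma), against 0.00371 in the main fit. Calls of the block fit are no check of the main fit. Depth is unknown, so no limit of detection can be given.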
